A study of Mus musculus with 6 samples.

Results

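The injury and revival state genes are 9 genes that mark a repair-like condition of the intestinal epithelium: Clu, Anxa1, Ly6a, Areg, Ereg, Il33, Ptgs2, Msln and Hbegf. They were taken by symbol from a table of 55331 genes, and each symbol matched 1 row. The study measured polyA RNA of small intestinal crypt cells in 6 libraries from C57BL/6 mice aged 60 days. The 3 WT libraries came from Ptbp1f/f mice without Cre, and the 3 PTBP1_KO libraries from Ptbp1f/f mice with Vil-creER+/-, a tamoxifen-activated Cre under villin control, which acts in gut epithelium and not in the lymphocytes, fibroblasts or other cells that crypt preparations can carry. Both groups received tamoxifen at 100 mg/kg in 2 daily injections, and crypts were collected 20 h after the last one, so the drug is shared and Cre is present in 1 group only. A group with Cre and unfloxed Ptbp1 was not analysed here, so Cre activity and loss of Ptbp1 cannot be told apart. The labels do not say that each library is a separate mouse, so the authors' p-values measure only the spread between these libraries.

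After damage by radiation, infection or inflammation, surviving crypt cells can switch for a short time to a repair program that resembles fetal gut epithelium. Clu marks the rare revival stem cells that appear in this program, Ly6a (Sca-1) and Anxa1 mark the fetal-like cells, and the transcriptional coactivator YAP, bound to TEAD factors, is a main driver. Epidermal growth factor receptor (EGFR) ligands, prostaglandins and the alarmin IL-33 are signals made or received around the wound. Most of these genes are low in the resting crypt.

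None of the 8 genes that were tested, of the 9, passed the test in PTBP1_KO crypts. Levels are the authors' FPKM (fragments scaled to transcript length and to library depth), with 1 value for each group of 3 libraries, so neither a spread nor a value per library can be given. A gene was called changed when the authors' q-value, adjusted over all 15460 genes they tested, was below 0.05. By that rule 0 of the 8 tested members were called higher and 0 lower, against backgrounds of 0.388% higher and 0.149% lower over all tested genes (0.537% in either direction). Ptgs2 was not tested by the authors. At an unadjusted p below 0.05 in the authors' deposited table, 1 of the 8 passed, Il33, against 4.35% of all tested genes. In 6 of the 8 the PTBP1_KO value was the higher one, and it was the higher one in 54.7% of all tested genes. The median log2((PTBP1_KO + 1)/(WT + 1)) of the 8 was 0.20 and that of all tested genes 0.02. This median has no error, because the table holds no value per library.

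The order of the 9 genes by level was nearly the same in both groups. In WT it ran from Ly6a (8.65 FPKM) through Hbegf, Il33, Areg, Ereg, Clu, Anxa1 and Msln to Ptgs2 (0.0552 FPKM), a range of 157-fold. In PTBP1_KO the range was 198-fold, and Areg stood above Il33, Clu above Ereg and Msln above Anxa1. These 3 pairs are neighbours in the order, and without values per library it cannot be said which neighbours differ beyond the spread between libraries. In both groups 4 members were at 1 FPKM or more, and 4 members were below it in both. The median tested gene had 7.75 FPKM, averaged over the groups.

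**Figure D1:**
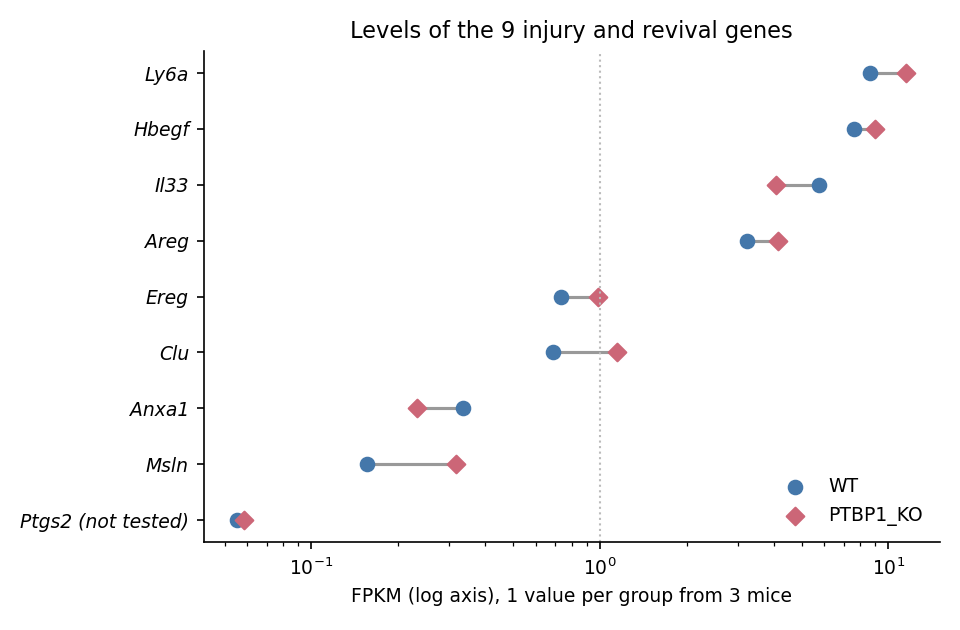
Level of each of the 9 genes in FPKM on a log axis, with circles for WT and diamonds for PTBP1_KO, each 1 group value of 3 libraries without an error. The dotted line is 1 FPKM. The axis label reads 3 mice, but the sample labels give 3 libraries and do not say that each is a separate mouse. Ly6a and Hbegf are the highest in both groups, Ptgs2 is the lowest, and Il33 and Anxa1 have the lower value in PTBP1_KO.

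Areg, Ereg and Hbegf are EGFR ligands, growth factors made as membrane-anchored precursors and cut free by proteases. Hbegf, which binds heparin and activates EGFR and ERBB4, stood at 7.59 FPKM in WT and at 8.98 FPKM in PTBP1_KO. For it, the authors' deposited table listed 0.24 as log2 fold change and p = 0.176. Areg (amphiregulin), an EGFR ligand made by epithelium and by immune cells during repair, stood at 3.24 FPKM in WT and at 4.13 FPKM in PTBP1_KO (log2 fold change 0.35, p = 0.199 in the authors' deposited table). Ereg (epiregulin) stood at 0.733 FPKM in WT and at 0.981 FPKM in PTBP1_KO, for which the authors' deposited table gives a log2 fold change of 0.42 and p = 0.132. All 3 ligands were listed somewhat higher in PTBP1_KO, by 1.18 to 1.34 times, and none of these differences passed the test. Their summed level was 11.6 FPKM in WT and 14.1 FPKM in PTBP1_KO.

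Areg (ENSMUSG00000029378.5, chr5:91139599-91148432) and Ereg (ENSMUSG00000029377.5, chr5:91074622-91093646) lie on the plus strand of chromosome 5 in mm10, 45952 bp apart. Hbegf (ENSMUSG00000024486.6) is on the minus strand of another chromosome.

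Many growth factor and cytokine messages carry AU-rich elements in the 3′ UTR, clusters of the pentamer ATTTA, here in DNA letters, that are known for marking short-lived mRNAs. The pentamer was counted, on the coding strand and with overlapping copies included, in the 3′ UTR of the longest coding transcript of each member in GENCODE M21. Areg had 4 copies in 253 nt, and 0.412% of the 10199 other tested genes with a 3′ UTR at least that long had as many in their first 253 nt. Ptgs2 had 14 copies in 2445 nt, matched or passed by 0.702% of 2138 other genes at the same length. Ereg had 9 in 3501 nt (25% of 1056 others had as many), Hbegf 4 in 1456 nt (27.9% of 4208) and Il33 3 in 1663 nt (48.8% of 3666). Clu, Anxa1, Ly6a and Msln had 0. Over 12452 tested genes with a 3′ UTR, 64.1% had at least 1 copy. The AU-rich 30-base windows with most copies are shown for Areg and Ptgs2, the 2 members in which the pentamer is densest, with each copy in capitals. They lie at chr5:91148370-91148399 and chr1:150105796-150105825, both on the plus strand of mm10 and within 3′ UTR.
Areg: taATTTATTTAatATTTAagtgttATTTAt
Ptgs2: atATTTATTTATTTAtgtgaagaATTTAat
A match describes these letters and is not evidence that any factor binds there. Of the 5 members with the pentamer, Areg, Ereg, Hbegf and the untested Ptgs2 were listed higher in PTBP1_KO and Il33 lower. Of the members without it, Clu, Ly6a and Msln were also listed higher and Anxa1 lower. None of the members was called, and the PTBP1_KO value was the higher one in 54.7% of all tested genes.

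**Figure D2:**
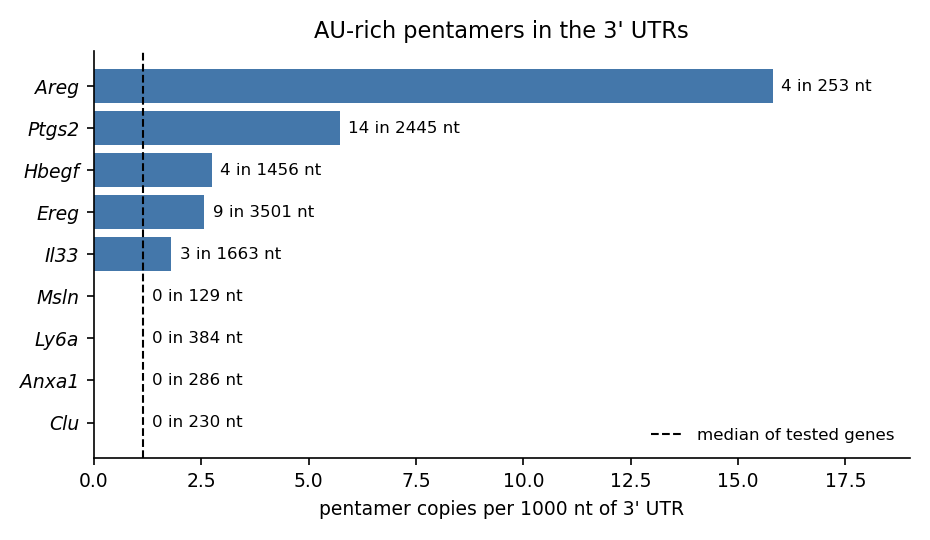
Copies of the AU-rich pentamer per 1000 nt of 3′ UTR in each member, with the copy number and 3′ UTR length beside each bar. The dashed line is the median of tested genes. Areg and Ptgs2 stand highest, and 4 members have no copy.

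Clu, Ly6a and Msln encode a secreted or surface protein each. Clu (clusterin, ENSMUSG00000022037.15, chr14:65968483-65981547), a secreted chaperone and the marker of revival stem cells, stood at 0.687 FPKM in WT and at 1.14 FPKM in PTBP1_KO. The value in PTBP1_KO was 1.66 times that in WT, and the authors' deposited table listed 0.73 as log2 fold change and p = 0.0602. Msln (mesothelin, ENSMUSG00000063011.7, chr17:25748613-25754378), a surface glycoprotein of mesothelium that also appears in repairing gut epithelium, stood at 0.156 FPKM in WT and at 0.318 FPKM in PTBP1_KO (p = 0.0971 in the authors' deposited table). These 2 genes were the only tested members past 1.5-fold in either direction, a size reached by 9.85% of all tested genes without regard to any test. Both are low, and on the log2(FPKM + 1) scale their differences were 0.35 and 0.19.

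The mesothelium was examined by 4 markers (Upk3b, Upk1b, Lrrn4 and Wt1), beside Msln. All 4 were below 1 FPKM in both groups, and their summed level was 0.625 FPKM in WT and 0.728 FPKM in PTBP1_KO. Only Upk1b was tested and it was not called. The part of these cells in the Msln value was not tested.

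Ly6a (ENSMUSG00000075602.10, chr15:74994877-74998031), a lipid-anchored surface protein that marks fetal-like repair epithelium and is also found on T cells and endothelium, was the highest member, with 8.65 FPKM in WT and 11.5 FPKM in PTBP1_KO. For Ly6a the authors' deposited table listed 0.41 as log2 fold change and p = 0.0907. Ly6a was not called. Of the markers of T and NK cells, all 9 were listed higher in PTBP1_KO, against 54.7% of all tested genes. Of the 9, 4 (Cd8a, Cd7, Gzma and Gzmb) were called, against 0.388% of all tested genes called higher. The 9 markers summed to 121 FPKM in WT and 221 FPKM in PTBP1_KO, and Ptprc, the pan-leukocyte gene, had 5.96 and 9.26 FPKM. The 3 endothelium markers summed to 0.600 and 0.657 FPKM, with Cdh5 and Kdr near 0. The part of these cells in the values of Ly6a, and of Areg, which lymphocytes can also make, was not tested. In bulk RNA, more cells of a type and more RNA per cell cannot be told apart.

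Ly6a also belongs to a family of close copies on chromosome 15, so its reads may be split between copies. Of 1297 distinct 50-base stretches in its annotated transcripts, 18.97% also occurred in transcripts of other genes, namely Ly6c1, Ly6c2, Ly6i and I830127L07Rik. Ly6c1 had 0.0350 and 0.0937 FPKM and Ly6i 0.0149 and 0.0338 FPKM in WT and PTBP1_KO, both without a test. Of the 3 copies with levels given here, Ly6c2 was the highest, at 0.158 and 0.455 FPKM. It had p = 0.0392 and q = 0.999805 in the authors' deposited table. All 3 lay far below Ly6a and were listed higher in PTBP1_KO. The level of I830127L07Rik is not given here. The share was 2.26% for Ereg, all with the overlapping gene Gm19610, 2.88% for Msln and 0 for Clu, Anxa1, Areg, Il33, Ptgs2 and Hbegf. The read length is not given in the sources used here, so 50 bases is a chosen length.

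The remaining members act in inflammation. Il33 (ENSMUSG00000024810.16, chr19:29925114-29960718), a nuclear cytokine released from damaged epithelial and stromal cells, stood at 5.74 FPKM in WT and at 4.08 FPKM in PTBP1_KO. PTBP1_KO thus had 71.1% of the WT level, with a log2 fold change of -0.49, p = 0.0158 and q = 0.666 in the authors' deposited table, which did not pass. It had the smallest p of the members, and the direction opposite to 6 of the other 7 tested ones. Anxa1 (annexin A1, ENSMUSG00000024659.15, chr19:20373428-20390944), a calcium-dependent phospholipid-binding protein that damps inflammation, stood at 0.335 FPKM in WT and at 0.232 FPKM in PTBP1_KO. The p in the authors' deposited table was 0.681. The authors' locus for Anxa1 spans 318610 bp and also holds Aldh1a1 and 3 other genes, while the gene itself spans 17517 bp. Ptgs2 (cyclooxygenase 2, ENSMUSG00000032487.8, chr1:150100031-150108227), the inducible enzyme of prostaglandin synthesis, stood at 0.0552 FPKM in WT and at 0.0583 FPKM in PTBP1_KO and carried the status NOTEST. Of the 3, Il33 is well above 1 FPKM, and the values of Anxa1 and Ptgs2 are below 1 FPKM in both groups.

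Most fibroblast markers that were tested were listed in the same direction as Il33. Of 7 markers, 5 were tested and 0 were called. At an unadjusted p below 0.05 in the authors' deposited table, 4 were lower: Col1a1, Col1a2, Col3a1 and Dcn, at 0.252 to 1.51 FPKM in WT and 0.0997 to 0.723 FPKM in PTBP1_KO. The background for a lower value at that p was 1.66%. Pdgfra was near 0 in both groups, Vim, which leukocytes also express, was listed higher in PTBP1_KO, and the summed level of the list was 7.83 and 7.60 FPKM. The part of fibroblasts in the Il33 value was not tested. Macrophage and monocyte markers (6 genes) summed to 16.8 FPKM in both groups, with none called. The 4 mast cell markers summed to 26.9 and 39.8 FPKM with none called. At an unadjusted p below 0.05 in the authors' deposited table, 3 of these 4 were higher (Mcpt1, Mcpt2 and Cpa3), against a background of 2.69%. The markers of other cells were low, with sums for the 4 smooth muscle markers of 0.434 and 0.894 FPKM, and for the 3 glia markers of 0.623 and 0.522 FPKM with Sox10 listed at 0. All 7 crypt epithelium markers were well expressed, from Lgr5 at 6.78 FPKM to Krt19 at 2011 FPKM in WT, and none was called.

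**Figure D3:**
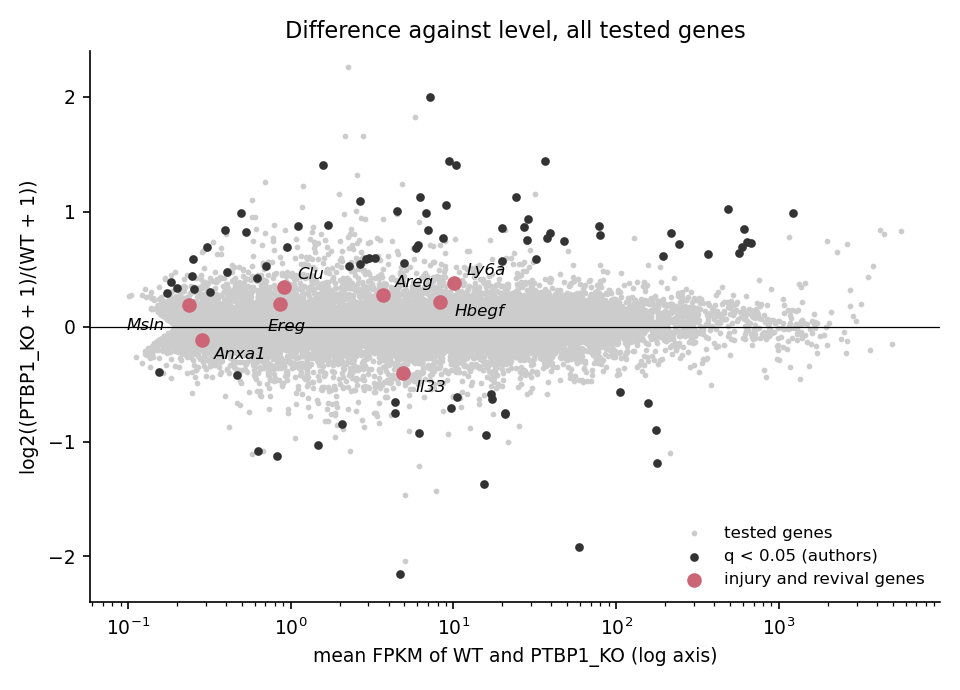
Difference between the groups, as log2((PTBP1_KO + 1)/(WT + 1)), against mean FPKM on a log axis, for the 15460 tested genes, with 1 gene beyond the axis. Black points passed q < 0.05 in the authors' deposited table and red points are the 8 tested members, none of which passed. Il33 is the lowest red point and Ly6a the highest.

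The targeted gene, Ptbp1, stood at 230.0 FPKM in WT and at 122.8 FPKM in PTBP1_KO, 53.4% of the WT level, and was called (log2 fold change -0.91, q = 0.0125 in the authors' deposited table). The members were therefore read in crypts that still held Ptbp1 RNA, whose source was not tested.

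The genes around the members were examined in 10 lists of 138 different genes, of which 94 were tested. Over all of them 1 was called higher and 0 lower, against 0.388% and 0.149% of all tested genes. Their median log2 ratio was 0.06, with 59 higher and 35 lower. At an unadjusted p below 0.05 in the authors' deposited table, 8 of the 94 were higher and 7 lower, against 2.69% and 1.66% of all tested genes.

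Among EGF receptors, ligand shedding and feedback genes, 11 of 13 were tested and 0 were called. Egfr, the receptor of all 3 member ligands, stood at 3.82 FPKM in WT and at 5.39 FPKM in PTBP1_KO, and the authors' deposited table listed p = 0.0111 and q = 0.555. Erbb3 (48.4 and 52.9 FPKM), Erbb2 (29.9 and 30.1 FPKM) and the sheddase Adam10 (33.3 and 35.5 FPKM) had the highest levels. The other ligands, also uncalled, were Tgfa at 5.06 and 5.52 FPKM, Btc at 1.67 and 2.15 FPKM, Egf at 0.473 and 0.447 FPKM, and Epgn, which was not tested. Hbegf was thus the EGFR ligand with the highest level of the 7, followed by Tgfa and Areg, in both groups.

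The Hippo pathway holds YAP back by phosphorylation. All 15 genes of its kinases and of the YAP/TEAD factors were tested and 0 were called, with a median log2 ratio of 0.01 that became -0.00 (-0.00359) after centring. Yap1 stood at 16.5 FPKM in WT and at 14.9 FPKM in PTBP1_KO. Tead3, a DNA-binding partner of YAP, stood at 20.7 FPKM in WT and at 35.0 FPKM in PTBP1_KO, a log2 fold change of 0.76 with p = 0.00055 and q = 0.0842 in the authors' deposited table, which did not pass. Nf2 (27.6 and 29.8 FPKM) and the TEAD cofactor Vgll4 (23.1 and 24.9 FPKM) were near each other in the groups.

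Of 22 YAP/TEAD target genes, 13 were tested, 1 was called higher and 0 lower, against 0.388% and 0.149% of all tested genes. The called gene was Nt5e (CD73), a surface enzyme that makes adenosine and is also found on lymphocytes, which rose from 4.71 to 9.26 FPKM (log2 fold change 0.97, q = 0.0125 in the authors' deposited table). The T and NK cell markers given above were also listed higher in PTBP1_KO, and the part of these cells in the Nt5e value was not tested. The best known targets were low: Ccn1 had 1.02 and 1.15 FPKM, Ccn2 0.00316 and 0.0182 FPKM without a test, and Ankrd1 was listed at 0 in both groups. The targets with the highest levels, Gadd45a (43.2 and 39.9 FPKM), Nuak2 (18.28 and 18.95 FPKM) and Dock5 (10.9 and 11.7 FPKM), were not called. Ccdc80 had 0.332 and 0.0902 FPKM, with p = 0.00095 and q = 0.126 in the authors' deposited table.

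Prostaglandin genes gave 10 tested of 16, with 0 called and a median log2 ratio of -0.03, which turned to 0.02 among genes of at least 1 FPKM. Next to Ptgs2, which was listed near 0, the constitutive enzyme Ptgs1 stood at 3.14 FPKM in WT and at 1.82 FPKM in PTBP1_KO (p = 0.0218, q = 0.769 in the authors' deposited table). Hpgds, the prostaglandin D synthase of blood cells and tuft cells, had 3.03 and 2.15 FPKM (p = 0.0339 in the authors' deposited table). Ptges3 (110 and 111 FPKM), the degrading enzyme Hpgd (57.9 and 53.9 FPKM) and Ptges2 (28.4 and 35.3 FPKM) were the highest. Ptger4, the receptor through which prostaglandin E2 acts on epithelium, had 10.4 and 11.6 FPKM.

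Of 13 genes around IL-33, 7 were tested and 0 were called, and the median of 0.00 (0.00125) became -0.02 (-0.0153) after centring. Il1rl1, the IL-33 receptor (ST2), was at 0.0268 and 0.0404 FPKM and not tested, so the ligand was listed far above its receptor. Il18 (73.5 FPKM in both groups) and the adaptor Myd88 (16.4 and 17.8 FPKM) were the highest, followed by Il18bp (5.68 and 7.48 FPKM). The alarmins Il25, a product of tuft cells, and Tslp were lower at an unadjusted p below 0.05 in the authors' deposited table, as were 1.66% of all tested genes. Il25 had 0.272 and 0.0903 FPKM (p = 0.0247), and Tslp 0.345 and 0.156 FPKM (p = 0.0496, q = 0.999805), in the authors' deposited table.

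Anxa1 was one of the lowest annexins. The annexin list had 11 tested genes of 15 with 0 called, led by S100a10 (659 and 701 FPKM), Anxa4 (480 and 518 FPKM) and Anxa2 (424 and 432 FPKM). Anxa13 had 151 and 118 FPKM, with p = 0.0174 and q = 0.695 in the authors' deposited table. Fpr1, a receptor for Anxa1, was listed at 0 in both groups. In the Ly6/uPAR family, 6 of 13 were tested and 0 were called. All 6 were listed higher in PTBP1_KO, as were 54.7% of all tested genes. Lypd8, an antibacterial surface protein of gut epithelium, had 2424 and 3023 FPKM, Ly6e 204 and 213 FPKM and Ly6m 38.6 and 45.6 FPKM. Ly6d had 1.88 and 3.50 FPKM with p = 0.0178 in the authors' deposited table.

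Partners and relatives of clusterin and mesothelin gave 6 tested of 10 with 0 called. Apoe had 32.2 and 27.7 FPKM, the complement inhibitor Cd55 14.2 and 13.9 FPKM, and the clusterin receptor Lrp8 3.26 and 4.37 FPKM. Cd59a, another complement inhibitor, had 1.21 and 0.634 FPKM, with p = 0.00795 and q = 0.470 in the authors' deposited table. Muc16, the binding partner of Msln, was at 0.0841 and 0.0466 FPKM and not tested. Of 18 further genes of fetal-like or repairing epithelium, 13 were tested and 0 were called. The laminin gene Lamb3 (3.63 and 4.80 FPKM) and the cornified envelope gene Sprr2a3 (13.5 and 20.9 FPKM) were higher at an unadjusted p below 0.05 in the authors' deposited table, as were 2.69% of all tested genes. S100a6 (70.8 and 63.5 FPKM), Krt7 (48.6 and 50.7 FPKM) and Emp1 (38.2 and 37.2 FPKM) were the highest.

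**Figure D4:**
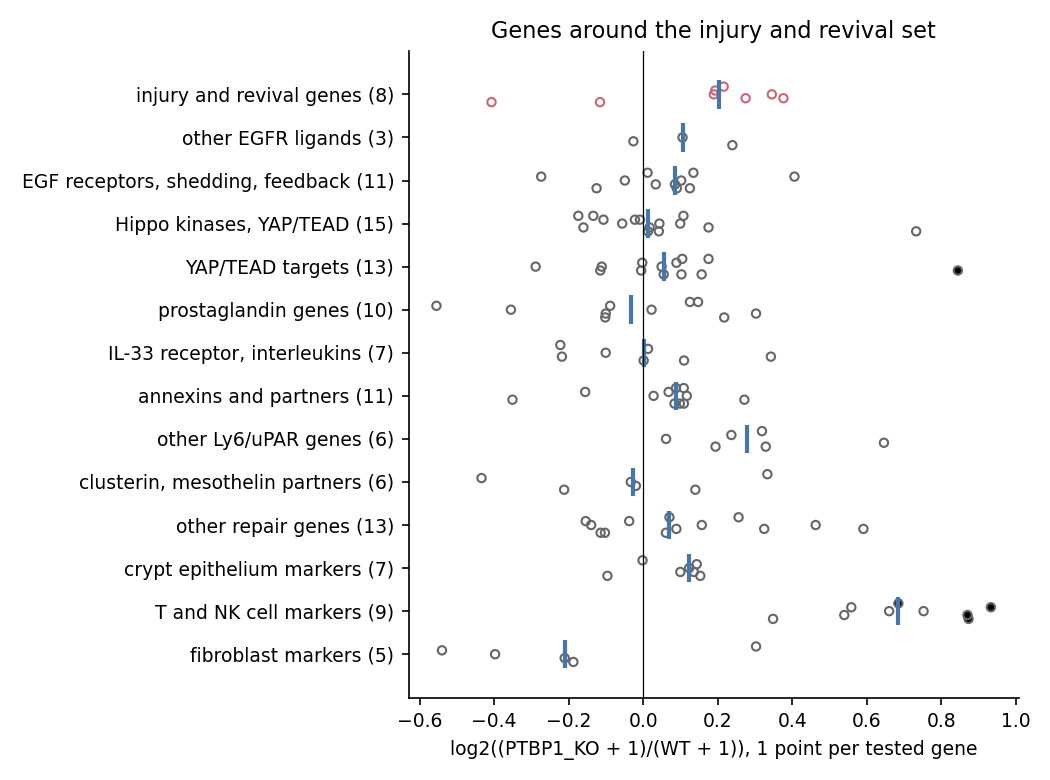
Each point is a tested gene, placed by log2((PTBP1_KO + 1)/(WT + 1)), with the number tested in brackets and the median as a blue bar. Filled points passed q < 0.05 in the authors' deposited table. In the 10 lists around the members the filled point is Nt5e, and 4 of the 9 T and NK cell markers are filled.

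PTBP1 binds pyrimidine-rich RNA and can include or exclude exons, so the splicing tables were searched for the members. These 5 tables compare 2 sets of 3 libraries. Their headers name no genotype for either set, so sizes are reported with no direction by genotype. An event was called at the authors' FDR below 0.05, an inclusion level difference of at least 0.1 and, averaged over libraries, at least 20 reads. Only 2 of the 9 members had any event, and only 1 member event, in Hbegf, had that coverage. Of member events 0 were called, against 1.56% of the 53918 events with that coverage, and 1 event is too few to compare with that share. Clu, Anxa1, Ly6a, Areg, Ereg, Il33 and Ptgs2 were in none of the tables.

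For Hbegf the event was a 178 nt exon (chr18:36512557-36512734, mm10), included in 98.7% of transcripts over all libraries, with a difference of -0.008 and FDR = 1.0 in the authors' deposited table. For Msln it was a 315 nt intron (chr17:25753063-25753377) averaging 3.33 reads, with the lowest library at 0, too few to be read.

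The Hbegf event also gave the one look at single libraries. It had 137 reads in the lowest library, a median of 217 and 246 in the highest. Scaled to the reads of all skipped exon events, of which libraries had 32226951 to 39774266, this was 4.14, 5.97 and 6.77 reads per 1000000. Libraries of the first set had 6.77, 6.04 and 6.18, and those of the second set 4.14, 5.77 and 5.90. On this scale each library of the first set lay above each library of the second, at the closest with 6.04 against 5.90. In unscaled reads the same libraries stood the other way, at 214 in the first set and 220 in the second. The order of the sets thus depends on the scaling. On the scaled values the highest library was 1.64 times the lowest. The group values of Hbegf FPKM differed by 1.18 times, but a range over single libraries cannot be compared with a ratio of group values. No test was made, because these 6 libraries carry no genotype.

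**Figure D5:**
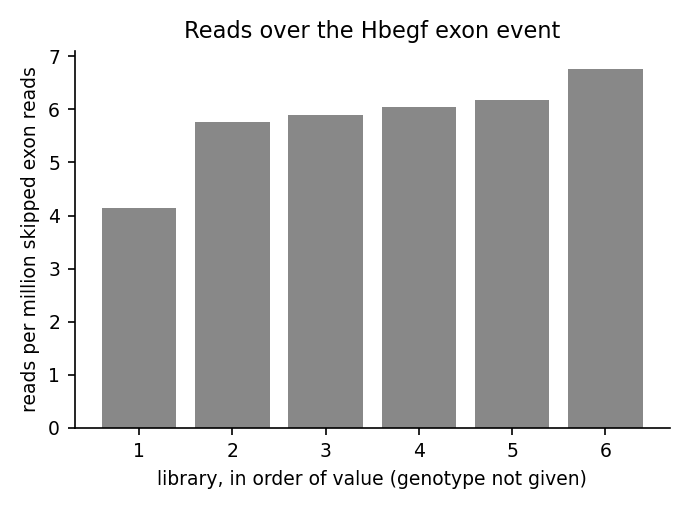
Reads over the Hbegf exon event per 1000000 skipped exon reads in each of the 6 libraries, ordered by value, with no genotype given. Libraries of the first set have the highest values, 6.04 to 6.77, and those of the second set have 4.14 to 5.90.

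In the lists around the members, 10 of 279 events with enough reads were called, which is 3.58% against 1.56% of all events, and they fell in 4 of 59 genes: Anxa7, Cd44, Lrp8 and Tead3. They were named after their values were seen, and events of 1 gene overlap and share reads. Anxa7, a relative of Anxa1, had 4 events. The best covered skipped exon is 66 nt long and coding (chr14:20467458-20467523, minus strand), averaging 352 reads, with an inclusion of 12.3% over all libraries. The authors' deposited table gives it a difference of 0.249. The same exon was called in a second skipped exon event, with a difference of 0.877 in the authors' deposited table. That event averaged 24.3 reads, with a lowest library of 3, and had an inclusion of 85.7% over all libraries. The sequence of this exon is shown because it was the best covered skipped exon called and its length keeps the reading frame. Of its bases, 68.2% are pyrimidines. Other exons of called events whose sequence was read had 35.4% to 52.9%. No share over all exons was computed, and binding by PTBP1 was not tested.
Anxa7: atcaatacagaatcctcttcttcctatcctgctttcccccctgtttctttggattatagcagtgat

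Tead3 had 3 called events. A pair of mutually exclusive coding exons of 63 nt each had -0.145 in the authors' deposited table. A further pair, which shares the exon at chr17:28336511-28336573 and adds a 65 nt exon, had 0.191. As skipped exons, the exons of this further pair were included at 99.9% and 99.3% over all libraries, and neither was called. The third was an intron of 1014 nt (chr17:28335497-28336510), which had 863 reads on average and 0.325 in the authors' deposited table. That interval also contains one of the 63 nt exons, so reads on the exon are reads within the intron. The exons of the first pair lie on the minus strand at chr17:28336511-28336573 and chr17:28336274-28336336, in that order below. They were identical at 40 of 63 positions (63.5%), and capitals mark the 23 that differ.
Tead3 exon a: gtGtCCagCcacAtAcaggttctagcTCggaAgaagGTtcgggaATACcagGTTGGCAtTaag
Tead3 exon b: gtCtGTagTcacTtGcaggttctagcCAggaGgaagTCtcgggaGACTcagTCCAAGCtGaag
Tead3 therefore differed in splicing between the sets of libraries, while its level did not pass the test.

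Lrp8 had 2 overlapping skipped exons that end at the same base, of 177 nt (difference 0.281 in the authors' deposited table, mean of 35.7 reads) and 61 nt (0.179 in the authors' deposited table, mean of 23.5 reads). In Cd44, the hyaluronan receptor of crypt base cells, a 126 nt coding exon (chr2:102845285-102845410, minus strand) had a difference of -0.111 in the authors' deposited table, 41.3 reads on average and a lowest library of 13.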

How the data were processed

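The submitters' processing notes name bcl2fastq 2.20, Trimmomatic 0.38, STAR 2.6.1d, Cufflinks, Cuffdiff and the build mm10. Per the file headers, the authors gave 1 FPKM value per group, and for each gene a log2 fold change, a test statistic (a score, not used), the p-value and its adjusted q-value. Deposited q-values equal Benjamini-Hochberg values over tested genes to within 5.01e-07. The gene table holds no value per library, so the depth behind its levels is unknown and no fit, interval or error could be computed for them. Reads per library stand in the splicing tables only. The deposited inclusion level difference is a score from -1 to 1, per the file headers, with the authors' FDR. Reads in the splicing tables were summed over libraries, and 10 columns of inclusion levels were not used.

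The members and lists were chosen with earlier results of these data known. Named genes were the 9 members, called genes, the 3 highest genes of each list around the members and 11 fixed genes, of which some are not reported here. Log ratios used a pseudocount of 1 FPKM. Coordinates are 1-based, with GENCODE M21 models and transcripts on mm10. Adjustment, ratio and motif counting were tested on simulated data. Python 3.11.15, numpy 2.4.6, pandas 2.3.3 and matplotlib 3.10.9 were used.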

Additional observations from a re-analysis of the deposited data

How the results depend on the processing

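No paired analysis was possible because the gene table holds 1 value per group, and for the same reason no replicate could be left out. The number of members called stayed at 0 with q < 0.1 and with a minimum of 1 FPKM, was 1 at an unadjusted p below 0.05 and 2 for a fold of at least 1.5 without a test. The members' median log2 ratio was 0.36 with a pseudocount of 0.1, 0.38 with 0.01, 0.19 after centring and 0.28 for members of at least 1 FPKM. Of 27 member ratios under other pseudocounts or centring, 1 changed sign, that of the untested Ptgs2 (-0.01 after centring). Around the members the median was 0.041 after centring and 0.071 for genes of at least 1 FPKM, and 3 of 10 list medians changed sign. Called splicing events of the lists numbered 5 at a difference of 0.2 and 14 at 0.05, and 6 at a mean of 50 reads and 13 at 10, against 10, which follows from looser or stricter limits, and member events stayed at 0. Scaling by the median ratio over events put the highest Hbegf library at 1.76 times the lowest. With stretches of 75 bases, a setting chosen after seeing the data, 6.33% of those in Ly6a were shared. Low levels limit Ptgs2, Msln and Anxa1, and the depth behind them is unknown.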

Other observations

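The 250 bases upstream of the transcription start were available from RefSeq (GRCm38.p6) for 4 of the 9 members, with 2 starts for Il33. The letters GGAATG, the core recognised by TEAD factors, were found on either strand upstream of Anxa1 and of both starts of Il33, and not upstream of Areg or Ptgs2, while 12.6% of 32851 promoters of the same length held them. The cyclic AMP response element TGACGTCA was found upstream of Areg, starting 61 bases before the first transcribed base, and in 1.55% of all promoters. The AP-1 letters TGANTCA were found in none of the 5 windows and in 6.75% of all promoters, and the letters of the NF-kB site in none and in 1.41%. All letters were searched on both strands. Such matches describe the letters in these windows and say nothing about the factors.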
